A study of Mus musculus with 6 samples.

Results

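The naive pluripotency transcription factors described here are Pou5f1, Nanog, Sox2, Klf2, Klf4, Klf5, Esrrb, Tfcp2l1, Zfp42 and Prdm14, 10 genes taken by name, each with 1 row of its own, of 30098 genes with a row of their own on the array. Total RNA of encapsulated mouse embryonic stem cell aggregates (R1, an established line, grown without feeder cells) was measured on Clariom D arrays, whose probes cover the coding and also the non-coding transcripts of the mouse. The 3 arrays after pre-differentiation were of aggregates grown for 7 days with leukaemia inhibitory factor (LIF) and then kept for 3 days in DMEM with BMP-4 and bFGF, growth factors used to direct cells to mesoderm. The 3 arrays before pre-differentiation were of aggregates taken at the end of the same 7 days with LIF. All aggregates were grown in the liquid core of alginate microcapsules. The second medium lists no LIF and no Knockout serum, so growth factors, LIF withdrawal, serum and 3 more days of culture cannot be told apart. The labels call the samples biological replicates.

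In naive embryonic stem cells OCT-4 (from Pou5f1) and SOX2 bind DNA side by side, and with NANOG, KLF factors, ESRRB, TFCP2L1 and PRDM14 they hold up each other's transcription. LIF, through STAT3, feeds into this network at Klf4 and Tfcp2l1. On leaving the naive state, cells usually lose Nanog, Klf2, Esrrb, Tfcp2l1, Zfp42 and Prdm14 early and Pou5f1 and Sox2 later, while Sox2 is also used by neural cells and Klf4 and Klf5 by epithelia.

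One of the after arrays stood apart from the others. After replicate 1 lay a median of 3.43 log2 units above the mean of after replicates 2 and 3 over the 10 factors, and 0.05 above over all genes. Changes of the factors and counts of calls are therefore given with and without that array. It was singled out by its values for these same factors, and leaving it out narrows the spread of the after group. Limma's p-values and counts without it therefore describe the remaining arrays and are no independent support. The signals are log2 values, in which 1 unit is a doubling, and they were compared with limma. The level taken as background, 4.24, is the 95th percentile of olfactory and vomeronasal receptor genes. Array medians were between 4.17 and 4.47. In RNA of whole aggregates fewer cells of a type and less RNA per cell cannot be told apart.

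Because these factors act on each other's genes, the 250 bases before the start of transcription were searched on both strands for a POU octamer part (TTTGCAT), a SOX site (CATTGT), a GC box (GGGCGG), a KLF-type site (GGGNGTGG) and a nuclear receptor half-site (AGGTCA). RefSeq (GRCm38.p6) had a window for 8 of the 10 genes, and 1 window a gene was counted, that of the outermost start where the table held it, which it did not for Tfcp2l1. The table held 3 further windows, of Nanog, Esrrb and Pou5f1. The POU letters were in 3 of the 8 (Nanog, Sox2 and Zfp42) and in 4.12% of all 32851 windows. The SOX letters were in the counted window of Nanog, 1 of 8 (and in the further windows of Nanog and Pou5f1), and in 10.7% of all windows. In Nanog the POU and SOX letters lay 1 base apart; they lay at most 3 bases apart in 35 of all windows, or 0.107%. The GC box was in 5 of the 8 (32.7% of all windows), the KLF-type letters in 4 (15.9%) and the nuclear receptor letters in 3 (14.0%). A match is a description of the letters and not a bound site. Below are 4 windows, 5′ to 3′: both genes with a large difference and a POU match outside Sox2 (Nanog, Zfp42), Pou5f1, whose window has a GC box beside nuclear receptor letters, and Klf4, whose mean was not lower. Capitals mark matches to any of the 5 motifs, which overlap in places.
Nanog, chr6:122707239-122707488, plus strand: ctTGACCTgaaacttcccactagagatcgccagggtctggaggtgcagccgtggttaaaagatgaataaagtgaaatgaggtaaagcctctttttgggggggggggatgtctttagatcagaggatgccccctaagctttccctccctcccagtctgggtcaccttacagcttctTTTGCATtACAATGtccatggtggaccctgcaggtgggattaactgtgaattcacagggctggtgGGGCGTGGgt
Zfp42, chr8:43307010-43307259, minus strand: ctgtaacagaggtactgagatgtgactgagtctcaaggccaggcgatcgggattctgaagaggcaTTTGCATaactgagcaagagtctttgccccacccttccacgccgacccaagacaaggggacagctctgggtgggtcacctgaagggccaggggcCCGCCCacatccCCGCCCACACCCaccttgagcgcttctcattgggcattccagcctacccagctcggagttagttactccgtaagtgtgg
Pou5f1, chr17:35505782-35506031, plus strand: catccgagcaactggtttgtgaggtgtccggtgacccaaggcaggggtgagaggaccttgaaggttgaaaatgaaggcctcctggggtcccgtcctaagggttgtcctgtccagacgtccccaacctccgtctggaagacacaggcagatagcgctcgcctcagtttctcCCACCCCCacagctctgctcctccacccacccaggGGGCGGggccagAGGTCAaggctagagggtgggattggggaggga
Klf4, chr4:55532476-55532725, minus strand: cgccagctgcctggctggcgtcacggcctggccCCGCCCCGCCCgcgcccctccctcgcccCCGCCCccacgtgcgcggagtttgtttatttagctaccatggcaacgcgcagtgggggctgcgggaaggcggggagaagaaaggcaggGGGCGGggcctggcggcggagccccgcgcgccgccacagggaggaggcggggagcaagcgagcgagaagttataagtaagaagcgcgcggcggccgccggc

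Pou5f1, Nanog and Zfp42 showed the widest differences. Pou5f1 had log2 signals of 14.48, 6.18 and 6.90 in after replicates 1, 2 and 3, against 15.25, 14.81 and 15.71 in the before replicates. Its after arrays all lay below its before arrays, after replicate 1 by a narrow margin and the other two by several units. Limma gave a log2 change of -6.07 ± 2.20 (± gives the standard error, SE, 95% interval -11.48 to -0.67, adjusted p = 0.169 from limma). Without after replicate 1 it was -8.72 ± 0.35 (SE, adjusted p = 0.00156 from limma). The mean of after replicates 2 and 3 was 421-fold lower than the before mean.

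Nanog, a homeobox factor that stabilises the naive state, had log2 signals of 14.02, 5.05 and 6.10 after and 16.34, 14.79 and 17.24 before. The groups did not overlap, and the before arrays spread over 2.45 units. After minus before, the log2 difference came to -7.73 ± 2.41 (SE, adjusted p = 0.139), and without after replicate 1 it was -10.54 ± 0.78 (SE, adjusted p = 0.00455). In after replicates 2 and 3 Nanog was within 2 units of the background level, so its fold change there depends on where the array's floor lies.

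Zfp42 encodes REX1, a zinc finger protein used as a reporter of the naive state. It had log2 signals of 13.47, 6.67 and 7.09 after and 15.20, 14.38 and 15.97 before, with no overlap. The log2 change was -6.10 ± 1.86 (SE, adjusted p = 0.135), and -8.30 without after replicate 1 (standard error 0.49, adjusted p = 0.00281). Pou5f1, Nanog and Zfp42 ranked the before arrays alike, with replicate 3 highest, replicate 1 next and replicate 2 lowest.

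**Figure D1:**
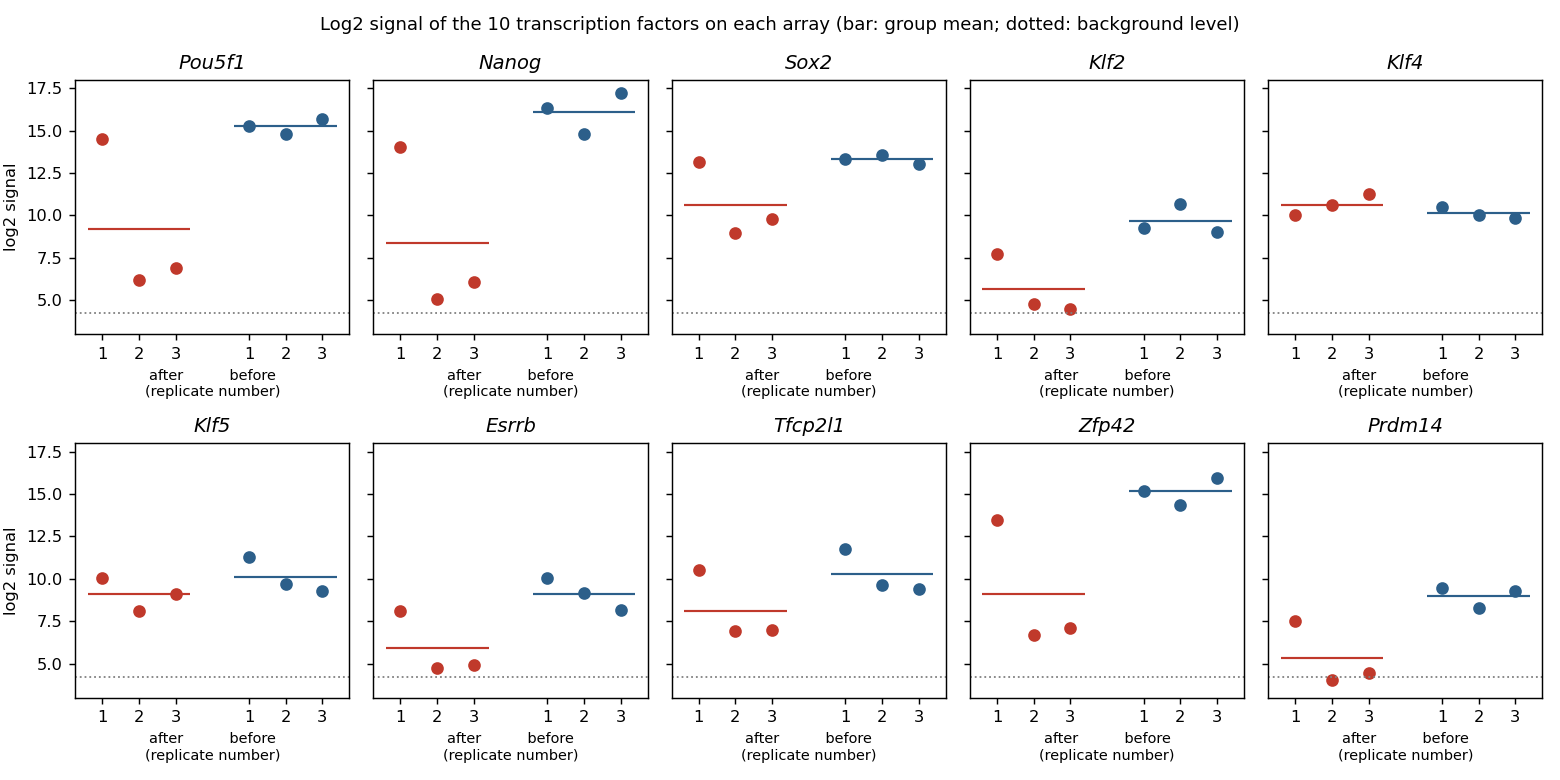
Log2 signal (vertical axis) of each of the 10 factors on the 3 arrays after (red, left) and the 3 before (blue, right) pre-differentiation, with a bar at each group mean and a dotted line at the background level of 4.24. After replicate 1 is the highest after array in 9 of the 10 panels, the exception being Klf4.

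Sox2, the DNA-binding partner of OCT-4, kept a signal well above background on every after array. It was at 13.13, 8.97 and 9.76 after and at 13.33, 13.54 and 13.04 before. After replicate 1 lay inside the range of the before arrays, which was the narrowest of the 10 factors at 0.51 units, and so the groups overlapped. Limma gave a log2 change of -2.68 ± 1.06 (SE, adjusted p = 0.193), and -3.93 without after replicate 1 (standard error 0.30, adjusted p = 0.00467). Markers of neuroectoderm, a tissue in which Sox2 is also used, were measured for 6 genes. With all arrays 0 of them passed limma's test, and at an unadjusted p under 0.05 2 of the 6, Pax6 and Sox1, had lower values (19.7% of all genes) and 0 had higher ones. In the fit without after replicate 1, 2 of the 6 were higher, Nes and Zfp521 (7.81% of all genes). Their mean log2 level was between 6.26 and 7.68 on the after arrays and between 6.62 and 6.92 on the before arrays, lowest in after replicate 1, and their part in the Sox2 signal was not tested.

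The KLF factors, zinc finger proteins that bind GC-rich sites, had unlike values. Klf2 had log2 signals of 7.75, 4.76 and 4.47 after and 9.29, 10.66 and 9.04 before. The groups were fully apart, and after replicates 2 and 3 were within 1 unit of background. After minus before, the log2 difference came to -4.00 ± 0.97 (SE, adjusted p = 0.0956, the lowest of the 10), and -5.05 without after replicate 1 (standard error 0.52, adjusted p = 0.00924).

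Klf4 had log2 signals of 10.04, 10.60 and 11.28 after and 10.52, 10.05 and 9.87 before. It is the 1 factor of the 10 with a higher mean after pre-differentiation, and after replicate 1, its lowest after array, lay among the before arrays. The log2 change was 0.49 (95% interval -0.36 to 1.35, adjusted p = 0.398 from limma), and 0.79 without after replicate 1 (95% interval 0.03 to 1.56, adjusted p = 0.175). It stayed above 0 with quantile normalization (0.76) and with median centring (0.67).

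Klf5 had log2 signals of 10.04, 8.13 and 9.09 after and 11.29, 9.68 and 9.30 before. The groups overlapped through after replicate 1. Limma gave a log2 change of -1.01 (95% interval -2.69 to 0.68, adjusted p = 0.383), and -1.48 without after replicate 1 (95% interval -3.22 to 0.26, adjusted p = 0.238).

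The differences between the KLF genes were set against each other within each array. The log2 signal of Klf2 minus that of Klf4 was -4.98 ± 2.38 after and -0.49 ± 0.97 before (SD, n = 3 each), a shift of -4.49 with no overlap (two-sided exact permutation p = 0.1, which is the smallest that 3 arrays against 3 allow). Klf2 minus Klf5 shifted by -2.99 (exact permutation p = 0.1, no overlap) and Klf4 minus Klf5 by 1.5 (exact permutation p = 0.3, overlapping). Among the core factors, Nanog minus Sox2 shifted by -5.05 (exact permutation p = 0.1, no overlap), Pou5f1 minus Sox2 by -3.39 (exact permutation p = 0.2) and Pou5f1 minus Nanog by 1.66 (exact permutation p = 0.1, no overlap). These 6 pairs were chosen with the values known, and with adjustment over them no exact permutation p was below 0.15. The shifts without after replicate 1, given with no test, were -5.84 for Klf2 minus Klf4, -3.56 for Klf2 minus Klf5, 2.27 for Klf4 minus Klf5, -6.61 for Nanog minus Sox2, -4.78 for Pou5f1 minus Sox2 and 1.83 for Pou5f1 minus Nanog, and the groups did not overlap in any of the 6.

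Epithelium markers were measured beside the KLF genes. Of 8 genes 3 passed limma's test, all higher (Krt18, log2 change 8.29; Cldn6, 7.98; Krt8, 6.35), where 1.23% of all genes were higher, and 6 were higher at an unadjusted p under 0.05 (11.0% of all genes). The count past the test was 5 without after replicate 1, 2 without before replicate 2, and 0 on leaving out any 1 of the other 4 arrays. Their mean log2 level was between 10.47 and 12.35 after and between 6.98 and 7.90 before. Their part in the Klf4 and Klf5 signals was not tested. Of 14 other Klf genes 0 passed limma's test. At an unadjusted p under 0.05, 2 were higher, a share near the 11.0% of all genes: Klf6 (log2 change 2.34, adjusted p = 0.0712) and Klf7 (1.98, adjusted p = 0.161). The smallest p among the rest was that of Klf17 (-0.33, adjusted p = 0.220), whose group means were below background. Without after replicate 1, Klf6 was higher (7.81% of all genes) and Klf9 and Klf10 were lower (7.49%) by limma, counts near those shares.

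Esrrb, an orphan nuclear receptor that can stand in for Nanog in keeping stem cells undifferentiated, had log2 signals of 8.09, 4.77 and 4.92 after and 10.04, 9.15 and 8.15 before. After replicate 1 lay just under the lowest before array, so that the groups did not overlap but nearly touched. After minus before, the log2 difference came to -3.19 ± 1.01 (SE, adjusted p = 0.141), and -4.27 without after replicate 1 (standard error 0.56, adjusted p = 0.0161).

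Tfcp2l1, a grainyhead-related factor downstream of LIF, had log2 signals of 10.50, 6.91 and 6.96 after and 11.77, 9.62 and 9.39 before. After replicate 1 was above 2 of the before arrays, while after replicates 2 and 3 were within 0.06 units of each other. The log2 change was -2.13 ± 1.17 (SE, adjusted p = 0.297), and -3.32 without after replicate 1 (standard error 0.77, adjusted p = 0.0646 from limma, above the threshold also there). The before arrays spread over 2.38 units, and in Esrrb, Tfcp2l1, Klf4 and Klf5 alike replicate 1 was the highest of them, replicate 2 next and replicate 3 lowest.

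Prdm14, which represses the FGF response and DNA methylation genes in naive cells, had log2 signals of 7.52, 4.01 and 4.44 after and 9.45, 8.30 and 9.30 before. It is the 1 factor with an after array below background, replicate 2, and its groups did not overlap. Limma gave a log2 change of -3.69 ± 0.96 (SE, adjusted p = 0.108), and -4.79 without after replicate 1 (standard error 0.40, adjusted p = 0.00557). Prdm14 is also used by primordial germ cells, as are Pou5f1 and Nanog. Of 8 germ cell markers 0 passed limma's test with all arrays, and an unadjusted p under 0.05 was reached by 1 with a higher mean, Kit (11.0% of all genes), and by 5 with a lower one (19.7% of all genes; Tfap2c, Prdm1 and Dnd1 had the smallest p). Leaving out after replicate 1, Kit was higher (7.81% of all genes) and Ddx4 and Dazl were lower (7.49%). Their mean log2 level was between 5.78 and 7.31 after and between 7.23 and 8.10 before.

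Over the 10 factors, 9 had a lower mean after pre-differentiation and 1 a higher one, and 0 passed limma's test at an adjusted p under 0.05 with all 6 arrays, where 0.651% of all genes were lower and 1.23% higher. The adjusted p of the 10 ran from 0.0956 to 0.398. At an unadjusted p under 0.05, 7 of the 10 were lower, beside 19.7% of all genes, and 0 were higher. In 6 of the 10 all after arrays lay under the lowest before array, beside 28.2% of all genes (and 11.8% with all after arrays over the highest); the other 4, Sox2, Klf4, Klf5 and Tfcp2l1, overlapped. The median log2 change was -3.44 over the 10 and -0.16 over all genes. Without after replicate 1, 7 of the 10 were lower by limma (all but Klf4, Klf5 and Tfcp2l1), beside 7.49% of all genes, and the median was -4.53, beside -0.18 over all genes. That array was left out because of its values for these factors, and on leaving out any other array 0 passed. No factor then overlapped: 9 lay below all before arrays, beside 42.3% of all genes, and Klf4 lay above them, beside 19.4%.

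**Figure D2:**
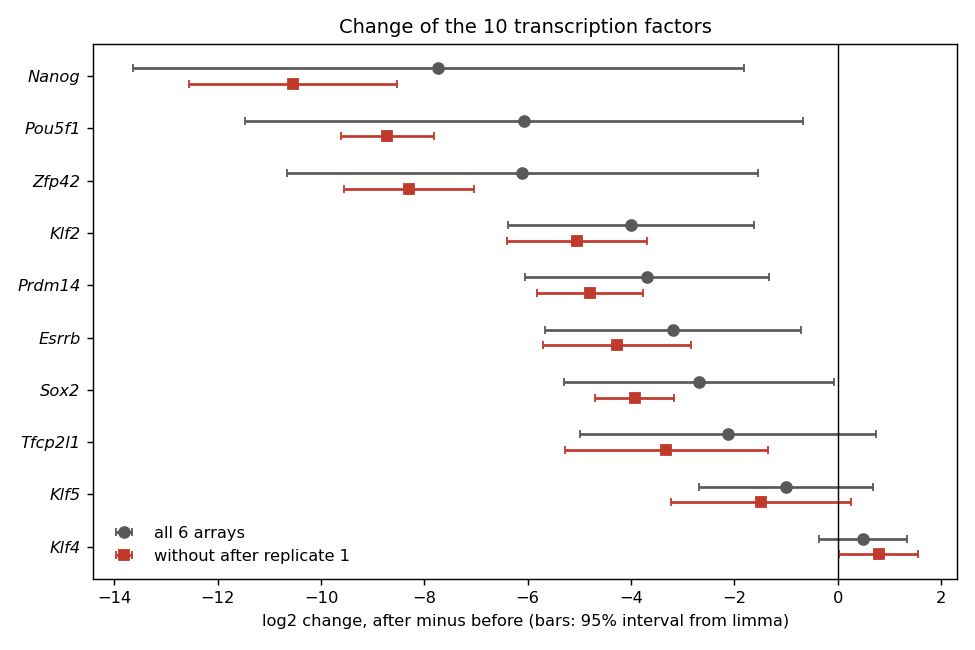
Log2 change, after minus before (horizontal axis), of the 10 factors with 95% intervals from limma, for all 6 arrays (grey circles) and without after replicate 1 (red squares), ordered by the red squares. Nanog has the lowest value in both, at -7.73 and -10.54, and Klf4 is the 1 factor right of 0, at 0.49 and 0.79.

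After replicate 1 itself did not hold all factors at one level. In 4 of the 10 (Sox2, Klf4, Klf5 and Tfcp2l1) its signal lay inside the range of the before arrays, and in the other 6 it lay below all of them. Its difference from the before mean was -2.10 for Nanog, -1.91 for Klf2, -1.71 for Zfp42, -1.50 for Prdm14 and -1.02 for Esrrb, and -0.78 for Pou5f1, -0.17 for Sox2, -0.10 for Klf4, -0.05 for Klf5 and 0.25 for Tfcp2l1. Nanog was thus 4.30-fold below its before mean on that array and Pou5f1 1.72-fold, while in after replicates 2 and 3 they were 1493-fold and 421-fold below. The mean of after replicates 2 and 3 was near the background level of 4.24 for Klf2 (4.61), Esrrb (4.84) and Prdm14 (4.23), so the size of their difference on those arrays is limited by the floor. The values of after replicate 1 are those of 1 array with no replicate. In 8 of the 10, after replicate 1 was 3 or more log2 units above the mean of the other after arrays, as it was in 0.867% of all genes.

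Parietal endoderm markers had high signals on all after arrays, replicate 1 included. Of 12 genes, 9 passed limma's test with all arrays and all 9 were higher, where 1.23% of all genes were higher. Among them were the basement membrane genes Col4a2 (log2 change 7.55), Col4a1 (6.87), Lamb1 (6.35) and Lama1 (5.72). On every after array all 12 lay above every before array (11.8% of all genes), and without after replicate 1 all 12 were higher by limma (7.81% of all genes). The count was 6 of 12 without before replicate 2 and 0 without after replicate 2 or 3 or before replicate 1 or 3. Their mean log2 level was 12.43, 12.97 and 13.75 in after replicates 1, 2 and 3 and between 8.10 and 8.78 before. That of the 10 factors was 10.91, 6.61 and 7.10 after and between 11.50 and 12.25 before. By these means after replicate 1 stood nearer the other after arrays for the endoderm markers and nearer the before arrays for the naive factors. It was still the lowest after array in every one of the parietal endoderm markers. Visceral endoderm markers had a mean log2 level of 9.32 in after replicate 1, 11.72 and 10.36 in the others, and 5.48 to 5.99 before, but 3 of the 10, Amn, Cubn and Hnf4a, were highest in after replicate 1 among the after arrays. With all arrays 1 of 10 passed the test, higher (1.23% of all genes), and without after replicate 1, 8 of 10 were higher (7.81% of all genes). The 1 that passed with all arrays was Afp (log2 change 10.86), whose call was lost on leaving out any 1 array but after replicate 1 (adjusted p of 0.0737 to 0.182 by limma). Early cardiac markers were at 4.82 in after replicate 1, 7.22 and 5.60 in the others, and 4.56 to 4.62 before, with 0 of 8 past the test (3 higher at an unadjusted p under 0.05, Mef2c, Isl1 and Hand2, beside 11.0% of all genes). Without after replicate 1, 2 of the 8, Isl1 and Mef2c, were higher (7.81% of all genes). Trophoblast markers were at 5.35 to 5.82 after and 4.94 to 5.04 before, with 0 of 7 past the test (an unadjusted p under 0.05 was reached by 4 with a higher mean, such as Cdx2 and Ascl2, and by 1 with a lower one, Tfap2c, beside 11.0% and 19.7% of all genes). In the fit without after replicate 1, 2 of the 7, Hand1 and Krt7, were higher (7.81% of all genes). The part of these cell types in the factors' values was not tested.

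**Figure D3:**
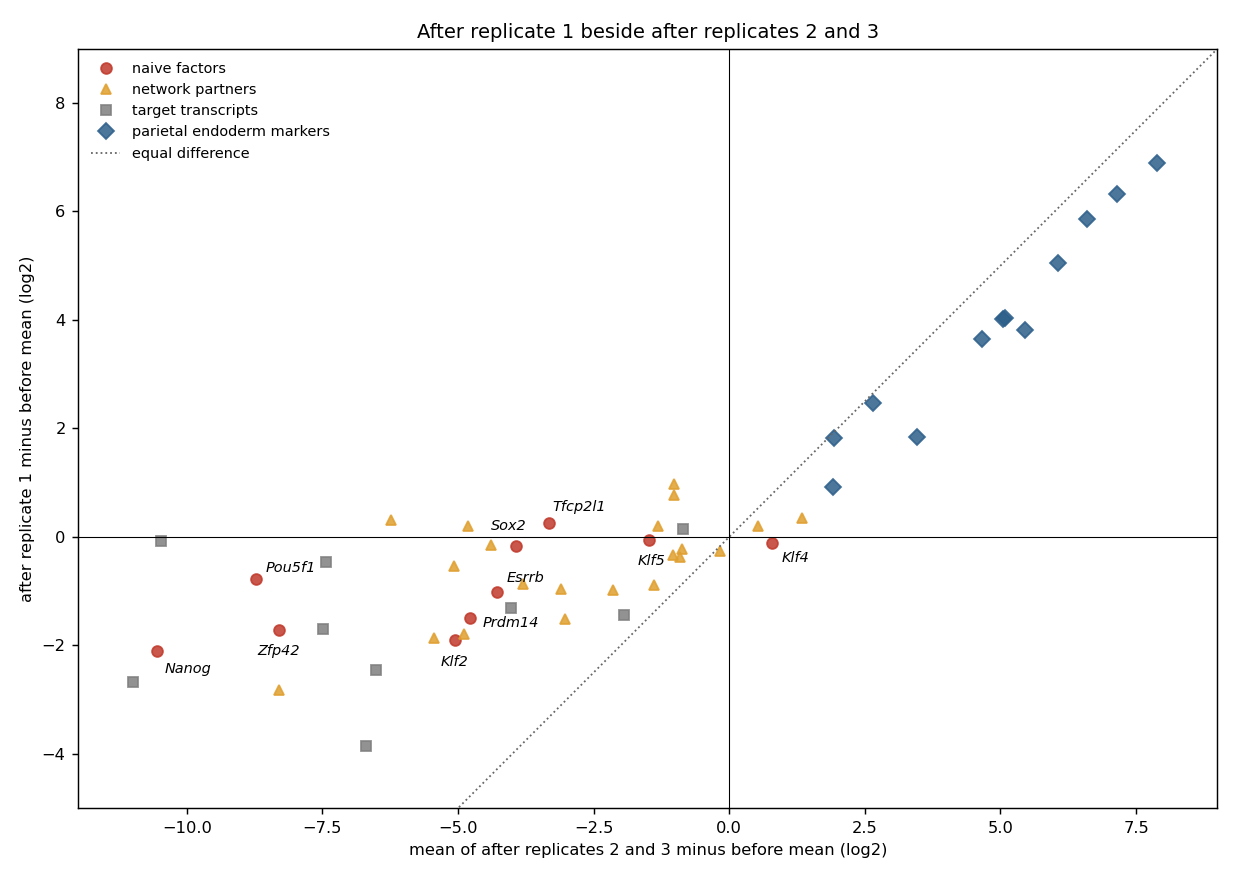
Difference from the before mean in log2 units, in after replicate 1 (vertical axis) and in the mean of after replicates 2 and 3 (horizontal axis), for the 10 factors (red circles), network partners (orange triangles), target transcripts (grey squares) and parietal endoderm markers (blue diamonds). The endoderm markers lie somewhat below the dotted line of equal difference, while the factors stretch to -10.54 on the horizontal axis and only to -2.10 on the vertical one.

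The transcripts that these factors are known to switch on in stem cells had lower means too. Of 9 target transcripts 1 passed limma's test, lower, where 0.651% of all genes were lower. It was Gdf3, a TGF-beta family ligand, with a log2 change of -5.75 (adjusted p = 0.0474 by limma). That call was lost on leaving out after replicate 2 (adjusted p = 0.185), after replicate 3 (0.167 by limma) or before replicate 1 (0.182), 2 (0.0737) or 3 (0.105), and kept without after replicate 1 (adjusted p = 0.00158 by limma). At an unadjusted p under 0.05, 7 of the 9 were lower (19.7% of all genes), and in 6 all after arrays lay under the lowest before array (28.2% of all genes). The median was -5.16, and without after replicate 1, 8 of the 9 were lower by limma (7.49% of all genes). Stem cell markers used to check the aggregates' label, some of them also targets, were at a mean log2 level of 12.71, 5.71 and 6.42 in after replicates 1, 2 and 3 and of 13.76 to 14.04 before; of 7 measured 0 passed (5 lower at an unadjusted p under 0.05, beside 19.7% of all genes), with the smallest p for Fbxo15, Tdgf1 and Dppa4. With after replicate 1 left out, 7 of the 7 were lower by limma (7.49% of all genes), and their median log2 change was -7.44, beside -5.16 with all arrays.

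Of 21 network partners measured (22 listed), which are transcription factors and cofactors that work with the 10, 0 passed with all arrays, 10 with a lower mean and 0 with a higher one reached an unadjusted p under 0.05 (19.7% of all genes lower, 11.0% higher), and in 7 all after arrays lay under the lowest before array, a share near the 28.2% of all genes. The median log2 change was -1.75. Nr5a2, an orphan nuclear receptor that binds the Pou5f1 gene, was at 6.09 ± 1.84 after and 9.94 ± 0.15 before (SD, n = 3 each), a log2 change of -3.86 (adjusted p = 0.0873 from limma). Nr0b1, an orphan nuclear receptor that binds OCT-4, was at 6.91 ± 3.17 after and 13.38 ± 0.86 before (SD, n = 3 each), a log2 change of -6.47 (adjusted p = 0.0960 from limma). Rif1, a protein of replication timing and telomeres, had a log2 change of -2.39 (adjusted p = 0.104). Without after replicate 1, 9 of the 21 were lower (7.49% of all genes) and 0 higher by limma.

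Genes of the formative and primed states, which follow naive pluripotency, were measured for 12 members. With all arrays 0 passed, an unadjusted p under 0.05 was reached by 1 of the 12 with a higher mean and 3 with a lower one, shares near the 11.0% and 19.7% of all genes, and the median log2 change was -0.10. Tcf15, a bHLH factor that primes stem cells for differentiation, had a log2 change of -3.17 (adjusted p = 0.133), Fgf5, the classic epiblast growth factor, 0.57 (adjusted p = 0.140) and the RNA-binding protein gene Lin28b -1.10 (adjusted p = 0.158). Tcf15 was the 1 gene of the 12 that passed without after replicate 1, lower, a share near the 7.49% of all genes.

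Factors that repress or oppose the naive network had higher means in 9 of 10 measured genes (12 listed), where the median log2 change of all genes was -0.16. Several of the 9 differences were small, the least of them 0.03, and the 1 lower mean differed by -0.11. With all arrays 0 passed, 4 with a higher mean (11.0% of all genes) and 0 with a lower one reached an unadjusted p under 0.05, 5 had all after arrays over the highest before array (11.8% of all genes), and the median log2 change was 0.35. Gata6, a primitive endoderm factor that opposes Nanog, was at 14.51 ± 0.62 after and 10.19 ± 1.31 before (SD, n = 3 each), a log2 change of 4.32 (adjusted p = 0.0530 from limma). Nr2f2 and Nr2f1 encode COUP-TF orphan receptors, which repress Pou5f1 through nuclear receptor sites. Nr2f2 was at 4.88, 8.18 and 7.98 in after replicates 1, 2 and 3 and at 3.76, 3.81 and 3.85 before, a log2 change of 3.21 (adjusted p = 0.117). Nr2f1 was at 5.68, 7.31 and 6.95 after and at 5.15, 5.08 and 5.38 before, a log2 change of 1.44 (adjusted p = 0.128). Without after replicate 1, Gata6, Nr2f1 and Nr2f2 were the 3 of the 10 that passed, all higher (7.81% of all genes).

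**Figure D4:**
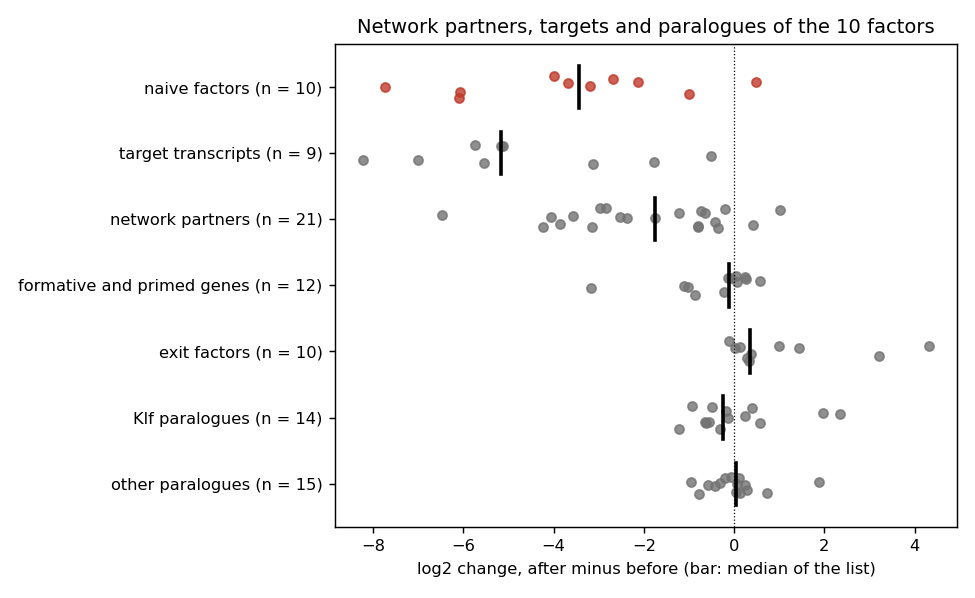
Log2 change, after minus before (horizontal axis), of each gene of 7 lists, with a black bar at the list's median and the 10 naive factors in red. The medians are -3.44 for the naive factors, -5.16 for the target transcripts and -1.75 for the network partners, and within 0.4 units of 0 for the other lists.

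Relatives of the other factors were measured as well. Of 15 genes measured from the POU, SOX, ESRR, TFCP2, YY and PRDM families (20 listed), 0 passed, and an unadjusted p under 0.05 was reached by 1 with a higher mean (11.0% of all genes) and 2 with a lower one (19.7%). Pou3f2, a neural POU factor, had a log2 change of 1.88 (adjusted p = 0.0876), Prdm1, a germ cell and endoderm factor, -0.95 (adjusted p = 0.132) and Sox1, a neural SOX factor, -0.59 (adjusted p = 0.200). The median was 0.04, and without after replicate 1, 2 were higher (Pou3f2 and Pou3f4).

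The genes whose profile was most like the mean of the 10 factors were Zfp600, Trim6, Rex2, Zfp979, Zfp987, Morc1, Zfp985, Zfp981, Syt9 and Zfp534, out of 1816 genes that ranged over at least 3 log2 units. Their likeness, Pearson's r over 6 arrays, was 0.996 to 0.998. It is a description. In the mean profile of the factors the arrays fall into 2 sets (after replicates 2 and 3, and the rest). Any gene that differs the same way between those sets scores highly. Zfp600, the nearest, was at 15.34, 7.67 and 8.07 after and at 17.50, 16.37 and 17.11 before. Of the 10 genes 7 are zinc finger genes that lie within a stretch of 51 genes on chromosome 4. Such genes are near copies of each other, so their probes may share signal and they are uncertain as separate genes. All 10 had a log2 change below 0, between -6.87 and -2.25, with an adjusted p of 0.115 to 0.150 by limma with all arrays. Without after replicate 1 all 10 were lower by limma (7.49% of all genes). The 10 were picked by likeness over these same arrays, so these changes and calls follow from the choice and are no support.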

How the data were processed

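The authors deposited log2 signals of 72688 rows, made with Transcriptome Analysis Console according to the submitters' processing notes; of its version, summarization and normalization nothing is stated in the labels or the methods. Left out were 31 AFFX rows. All other rows, 72657, entered one limma 3.58.1 model in R 4.3.3 (lmFit, then eBayes), after minus before, with two-sided p-values adjusted by Benjamini-Hochberg over all rows and a threshold of 0.05. No test for the arrays is named in the methods. A gene is its brightest row with a single symbol, and 330 symbols were updated through RefSeq. The background level rests on 1386 receptor genes. Exact permutation tests were run with SciPy 1.17.1. The factors and gene lists were chosen with earlier results of these data known. Named were all 10 factors, in each list the genes past the threshold (at most 4, by size) or else the 3 with the smallest p, and the 10 genes most alike in profile; genes named for passing without after replicate 1, Kit, and the visceral endoderm genes highest in that array, were picked after their values were seen. Listed genes without a row of their own were not analysed here. The model was tested on simulated data, where it recovered 5, 31, 34 and 48 of 50 changes of 1, 2, 4 and 8 log2 units. It also called 13 rows that had no change. The changed rows were drawn from all rows, so these counts do not give the power for the 10 factors. As alternatives, arrays were quantile normalized or centred on their medians, dim rows or control rows were left out, an intensity trend with robust variances or the methods' test for other assays was used, rows of a gene were averaged, the replicate number was added as a block, and each array was left out. The number of arrays limits the precision.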

Additional observations from a re-analysis of the deposited data

How the results depend on the processing

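Of 150 values of the log2 change of the 10 factors (15 alternatives each) 0 changed sign and 7 passed the threshold where the value with all arrays did not, all 7 without after replicate 1. Leaving out each array in turn, the factors past limma's threshold ranged from 0 to 7, the factors whose groups did not overlap from 6 to 10, the network partners past the threshold from 0 to 9, the formative and primed genes from 0 to 1 and the exit factors from 0 to 3; in each case the highest count came without after replicate 1, and without any other array 0 passed. The median log2 change of the factors ran from -4.53 to -2.82 over those fits and was -3.24 with quantile normalization and -3.26 with median centring. Of the exit factors 1, Gata6, passed with quantile normalization, 1 with control rows left out, 1 with only rows above background and 1 with only the brighter rows, those over the median; the last 3 settings test fewer rows, and for the first the cause was not tested. In the fit with a replicate block 0 of the factors passed. The labels do not say whether arrays of the same number belong together. Same-numbered arrays had deviations correlated at -0.03, 0.14 and -0.08, and so few arrays cannot settle whether they are paired. With either scaling, 5 factors had groups that did not overlap. After replicates 2 and 3 were close to background for Klf2, Esrrb and Prdm14, which limits how large a difference these arrays can show. Calls of Gdf3, Afp and the epithelium and parietal endoderm markers with single arrays left out, a check added after seeing the data, stand beside those results.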
